A study of Mus musculus with 6 samples.

Results

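The genes of anti-Müllerian hormone (AMH), inhibin and activin signalling were examined in RNA of whole testes from mice at postnatal day 12. The 10 genes were taken by symbol from a table of 54232 genes and are the ligand genes *Amh*, *Inha*, *Inhbb* and *Inhba*, the genes of the activin-binding proteins *Fst* and *Fstl3*, and the receptor genes *Amhr2*, *Acvr1b*, *Acvr2a* and *Acvr2b*. All 10 were present in the table and passed the filter on low counts, with 290 to 21465 counts per library. Testes were sequenced as 3 libraries labelled *Dis3l2* KO and 3 libraries labelled *Dis3l2* WT. The first group is described by the study as *Stra8-Cre; Dis3l2* F/-. In it Cre acts in a share of the spermatogonia and in later premeiotic germ cells, and not in Sertoli and other somatic cells. The - allele of this stated genotype is not confined to germ cells, so somatic cells of such mice would carry it as well. The second group is littermate control males, and both are of B6D2F1 background. Libraries of a group are called biological replicates by the study, without the number of animals behind each one.

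The groups are called KO-labelled and control here, because the check of the targeted gene went against the label. *Dis3l2*, which encodes a cytoplasmic exoribonuclease, had 31.6, 25.4 and 27.5 counts scaled to a library size of 1000000 (CPM) in the KO-labelled libraries and 25.8, 23.5 and 23.0 CPM in the control libraries (log2 fold change 0.22, adjusted p = 0.136 by edgeR). *Dis3*, its homolog of the nuclear exosome, had 59.1, 64.3 and 68.1 CPM in the KO-labelled libraries and 133, 148 and 137 CPM in the control libraries (log2 fold change -1.13, adjusted p = 2.71e-07 by edgeR). The design text of the series names a *Dis3* cKO, whereas the sample titles name *Dis3l2* KO. The paper reports less *Dis3l2* mRNA by RT-qPCR and less DIS3L2 protein by immunoblot in cKO testes of the same age. Counts here are over whole genes, so a loss of the floxed part alone was not examined. Depth was 37533318 to 44956193 counts in KO-labelled and 33325483 to 41945867 counts in control libraries. Germ cell markers summed to 1027 to 1342 CPM in the KO-labelled libraries, against 2602 to 2996 CPM in the control libraries, and Sertoli cell markers to 14669 to 15757 CPM, against 9452 to 10078 CPM. In RNA of a whole testis, fewer cells of a type and less RNA per cell cannot be told apart.

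AMH and the inhibins are made in the testis by Sertoli cells, the somatic cells that enclose the germ cells. AMH drives regression of the Müllerian ducts in the male fetus, stays high in immature Sertoli cells and declines at puberty, and it signals through its own type II receptor, AMHR2, and type I receptors shared with bone morphogenetic proteins. Inhibins pair the alpha subunit (*Inha*) with a beta subunit (*Inhba* or *Inhbb*) and restrain secretion of follicle-stimulating hormone (FSH) from the pituitary, whereas activins are dimers of beta subunits, bind ACVR2A or ACVR2B, recruit ACVR1B and act through SMAD2 and SMAD3. Follistatin (*Fst*) and its relative *Fstl3* encode secreted proteins that bind activin and keep it from its receptors.

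Upstream sequences are given for 3 genes whose levels differed between the groups, so that the DNA next to their start sites can be seen beside the values. RefSeq windows on GRCm38.p6 were matched for 8 of the 10 genes, and *Amh* and *Fst* were the ones not matched. The window of *Inha* overlaps an annotated exon and is not shown. Capitals mark matches to 4 motifs searched on both strands: AGGTCA, the half-site bound by NR5A1, the GATA motif, the letters AACAAT for SOX factors, and the letters TGACG of the cyclic AMP response half-site. The GATA motif was searched in the forms AGATAA and AGATAG and also in the forms TGATAA and TGATAG, and no motif holds another whole. The sequences run 5′ to 3′ in the direction of transcription. Those of *Amhr2* and *Inhbb* end at the base before the RefSeq start site.
Amhr2: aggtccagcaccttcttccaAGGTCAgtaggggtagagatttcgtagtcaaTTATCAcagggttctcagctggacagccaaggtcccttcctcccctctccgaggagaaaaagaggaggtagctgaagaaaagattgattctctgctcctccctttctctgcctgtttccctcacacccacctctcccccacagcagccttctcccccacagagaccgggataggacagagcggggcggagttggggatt
Inhbb: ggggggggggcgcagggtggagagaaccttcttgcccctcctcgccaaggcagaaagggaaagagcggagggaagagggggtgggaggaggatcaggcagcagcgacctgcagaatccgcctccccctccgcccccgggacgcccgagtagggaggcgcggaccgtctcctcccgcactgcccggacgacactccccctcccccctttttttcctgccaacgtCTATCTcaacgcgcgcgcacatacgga
Acvr2b: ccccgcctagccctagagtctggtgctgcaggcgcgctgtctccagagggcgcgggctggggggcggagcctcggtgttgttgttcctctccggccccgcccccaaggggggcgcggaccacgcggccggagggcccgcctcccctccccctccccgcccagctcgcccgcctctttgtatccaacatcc
The *Amhr2* window is chr15:102445117-102445366 on the plus strand, the *Inhbb* window is chr1:119422249-119422498 on the minus strand, and the *Acvr2b* window is chr9:119401928-119402117 on the plus strand. The first 2 hold 250 bases and that of *Acvr2b* holds 190 bases. The bases of its window nearest the RefSeq start site overlap an annotated exon and were left out. Its sequence thus ends at the base before the annotated start of the gene, 119402118. *Amhr2* held AGGTCA beginning at -230 and the letters TTATCA, which match GATA on the other strand, at -199. *Inhbb* held CTATCT, also a GATA match on the other strand, at -27, and the *Acvr2b* window held none of the 4. Among 32851 promoter windows of 250 bases, 14.0% held AGGTCA, 26.5% a GATA match, 9.42% AACAAT and 17.8% TGACG. In windows of 190 bases these shares were 10.8%, 22.4%, 7.58% and 11.7%. A match is a description of the letters and not a site of binding.

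The comparison of KO-labelled with control testes asks how the RNA of these genes differs when *Stra8-Cre* has acted in the germ line. CPM are scaled by the trimmed mean of M values (TMM), a fold change is KO-labelled over control, and a gene is said to have risen or fallen at a Benjamini-Hochberg adjusted p under 0.05 over the 20327 genes tested by edgeR's quasi-likelihood test. Of the 10 genes, 6 rose, 1 fell and 3 did not pass. Among all genes tested, 32.7% passed, 16.2% as higher and 16.5% as lower. The median log2 fold change was 0.45 over the 10 genes and -0.02 over all genes tested. In 5 of the 10 genes every KO-labelled library lay above every control library, and in 1 every KO-labelled library lay below, against 21.7% and 23.8% of all genes tested.

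**Figure D1:**
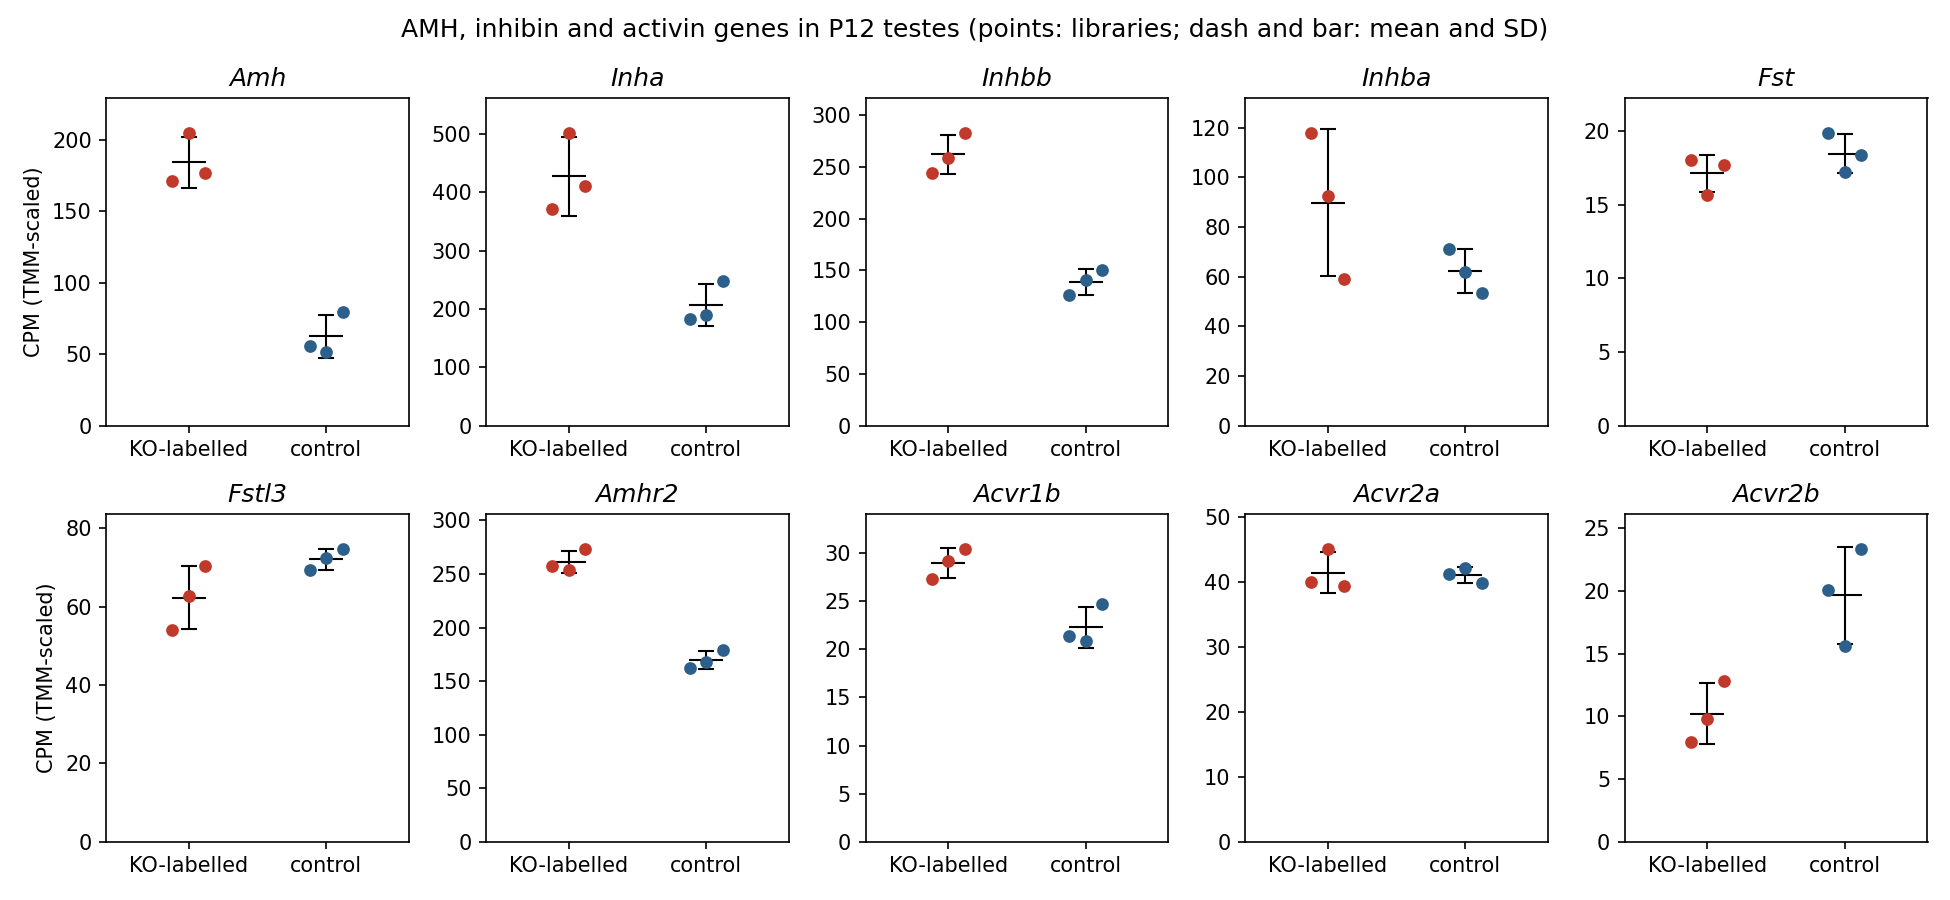
TMM-scaled CPM (y axis, linear from 0) of the 10 genes in 3 KO-labelled (left, red) and 3 control libraries (right, blue) of testes at postnatal day 12, with each point a library and the dash and bar the mean and SD. *Amh* lay between 171 and 205 CPM in KO-labelled libraries and between 51.5 and 79.9 CPM in control libraries, while *Acvr2b* lay between 7.98 and 12.8 CPM, against 15.6 to 23.3 CPM.

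The ligand genes *Amh*, *Inha* and *Inhbb* rose in the KO-labelled testes. *Amh* (ENSMUSG00000035262.5, GRCm38 chromosome 10, 80805243 to 80807648) had 171, 205 and 177 CPM in KO-labelled libraries, against 56.1, 51.5 and 79.9 CPM in control libraries. The lowest KO-labelled library was thus far above the highest control library, which was control library 3. The log2 fold change was 1.56 (SE 0.14, 95% interval 1.27 to 1.85, adjusted p = 1.29e-06 by edgeR), a 2.95-fold difference, and 0.546% of the genes tested had a higher one. *Inha*, which encodes the subunit that turns a beta chain into an inhibin, had 370, 501 and 410 CPM in KO-labelled libraries, against 183, 189 and 248 CPM in control libraries (ENSMUSG00000032968.4, chromosome 1, 75507077 to 75510366). Its groups did not overlap either, and KO-labelled library 2 was the highest for both *Amh* and *Inha*, as control library 3 was among the controls. The log2 fold change of *Inha* was 1.05 (SE 0.12, 95% interval 0.78 to 1.31, adjusted p = 2.06e-05 by edgeR).

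*Inhbb* encodes the beta B subunit, which with the alpha subunit forms inhibin B, the main circulating inhibin of males. It had 245, 259 and 283 CPM in KO-labelled libraries, against 126, 141 and 150 CPM in control libraries (ENSMUSG00000037035.5, chromosome 1, 119415465 to 119422248). The groups lay apart by more than their own ranges, with a log2 fold change of 0.91 (SE 0.09, 95% interval 0.73 to 1.10, adjusted p = 3.26e-06 by edgeR). *Inhba*, the gene of the beta A subunit, is transcribed in several cell types of the postnatal testis. It had 118, 92.6 and 59.1 CPM in KO-labelled libraries, against 71.2, 62.1 and 53.5 CPM in control libraries (ENSMUSG00000041324.14, chromosome 13, 16011851 to 16031621). KO-labelled library 3 fell among the controls, and the 3 KO-labelled libraries were the most spread of any group for the 4 ligand genes relative to their mean (89.8 ± 29.5 CPM, SD, n = 3).

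The rise of *Inhba* was the least stable of the calls. Its log2 fold change of 0.53 (SE 0.18, 95% interval 0.15 to 0.91) passed at an adjusted p of 0.0348 by edgeR, but not with DESeq2 (0.55, adjusted p = 0.182) or limma-voom (0.49, adjusted p = 0.0537). Those tests called 24.6% and 33.0% of the genes they tested. Without KO-labelled library 1 it was 0.30 (adjusted p = 0.167 by edgeR), without KO-labelled library 2 it was 0.52 (0.0866), without control library 2 it was 0.57 (0.0832) and without control library 3 it was 0.44 (0.139). KO-labelled library 1, the highest for *Inhba*, also had the highest summed stromal markers (7534 CPM, against 4885 and 4986 CPM in the other KO-labelled libraries) and macrophage markers (287 CPM, against 212 and 203 CPM). It was also the highest for Leydig (783 CPM) and endothelial markers (475 CPM). Among the controls library 1 was the highest for *Inhba* and macrophage markers (174 CPM, against 149 and 158 CPM). Stromal markers were highest in control library 2 (5368 CPM, against 4317 and 4146 CPM). The part of these cells in the *Inhba* values was not tested.

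The genes of the activin-binding proteins did not pass the test. *Fst* (ENSMUSG00000021765.9, chromosome 13, 114452290 to 114458951) had 17.99, 15.7 and 17.7 CPM in KO-labelled libraries, against 19.8, 17.2 and 18.3 CPM in control libraries. The groups overlapped, and the log2 fold change was -0.11 (95% interval -0.36 to 0.14, adjusted p = 0.522 by edgeR). *Fstl3* (ENSMUSG00000020325.10, chromosome 10, 79777272 to 79782630) had 54.1, 62.6 and 70.3 CPM in KO-labelled libraries, against 69.3, 72.3 and 74.6 CPM in control libraries. Only KO-labelled library 3 reached the control range, and the log2 fold change was -0.21 (95% interval -0.42 to -0.0022, adjusted p = 0.114 by edgeR). Without KO-labelled library 3 it was -0.29 and passed (adjusted p = 0.0332), and without KO-labelled library 1 it was -0.11 (adjusted p = 0.425).

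Among the receptor genes *Amhr2* and *Acvr1b* rose, *Acvr2b* fell and *Acvr2a* did not pass. *Amhr2*, the gene of the type II receptor that binds AMH alone, had 257, 254 and 273 CPM in KO-labelled libraries, against 162, 168 and 179 CPM in control libraries (ENSMUSG00000023047.11, chromosome 15, 102445367 to 102454633). It varied least among the libraries of a group of all genes that rose, and its log2 fold change was 0.62 (SE 0.08, 95% interval 0.46 to 0.78, adjusted p = 2.63e-05 by edgeR). This call did not hold when libraries were scaled to Sertoli markers (0.02, adjusted p = 0.846) or somatic markers (0.17, adjusted p = 0.236). *Acvr1b* encodes ALK4, the type I receptor of activin, and had 27.3, 29.2 and 30.4 CPM in KO-labelled libraries, against 21.4, 20.8 and 24.8 CPM in control libraries (ENSMUSG00000000532.11, chromosome 15, 101174067 to 101213684). The groups did not overlap, but the gap between them was small. The log2 fold change of *Acvr1b* was 0.38 (SE 0.11, 95% interval 0.15 to 0.60, adjusted p = 0.0138 by edgeR), its sign turned when libraries were scaled to Sertoli or somatic markers (-0.22 and -0.08), and it did not pass without control library 1 (0.35, adjusted p = 0.0654).

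The type II activin receptor genes differed from each other. *Acvr2b* (ENSMUSG00000061393.14, chromosome 9, 119402118 to 119434995) had 7.98, 9.83 and 12.8 CPM in KO-labelled libraries, against 20.04, 15.6 and 23.3 CPM in control libraries. Every KO-labelled library lay below every control library, with a log2 fold change of -0.95 (SE 0.18, 95% interval -1.33 to -0.56, adjusted p = 9.46e-04 by edgeR). The germ cell markers, whose sums are given above, fell with *Acvr2b* between the groups. Within the KO-labelled group both were lowest in library 1 and highest in library 3. Among the controls the order was reversed, with the highest germ cell sum (2996 CPM) in library 2, where *Acvr2b* was lowest. The part of germ cells in the *Acvr2b* values was not tested. *Acvr2a* (ENSMUSG00000052155.5, chromosome 2, 48814109 to 48903269), which encodes the other type II receptor of activin, had 40.0, 45.1 and 39.3 CPM in KO-labelled libraries, against 41.2, 42.2 and 39.9 CPM in control libraries. These values overlapped, with a log2 fold change of 0.01 and a 95% interval of -0.18 to 0.21 (adjusted p = 0.930 by edgeR).

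Levels can be compared between genes only per length of transcript, so CPM were divided by kilobases of exon. On this scale *Inha* was the highest of the 10 genes, at 290 ± 45.5 CPM per kilobase in KO-labelled and 140 ± 24.3 CPM per kilobase in control testes (SD, n = 3 each). *Amhr2* followed at 130 ± 5.07 in KO-labelled and 84.7 ± 4.32 in control testes, then *Amh* at 110 ± 10.8 in KO-labelled and 37.4 ± 9.13 in control testes, and *Inhbb* at 61.6 ± 4.53 in KO-labelled and 32.7 ± 2.90 in control testes. The middle of the order was held by *Fstl3*, at 25.5 ± 3.31 CPM per kilobase in KO-labelled and 29.5 ± 1.09 in control testes, and *Inhba*, at 14.1 ± 4.61 in KO-labelled and 9.75 ± 1.38 in control testes. The activin receptor genes and *Fst* were the lowest. *Acvr2a* stood at 7.29 ± 0.550 CPM per kilobase in KO-labelled and 7.23 ± 0.205 in control testes, and *Acvr1b* at 6.56 ± 0.348 in KO-labelled and 5.05 ± 0.483 in control testes. *Fst* stood at 3.73 ± 0.276 CPM per kilobase in KO-labelled and 4.02 ± 0.291 in control testes, and *Acvr2b* at 2.60 ± 0.621 in KO-labelled and 5.005 ± 0.982 in control testes. The order was the same in both groups except that *Acvr2b* stood below *Fst* in the KO-labelled and above it in the control testes. Neighbours in the order did not overlap in any of the 9 pairs among KO-labelled libraries, against 4 overlapping pairs among control libraries, which were *Amh* with *Inhbb*, *Inhbb* with *Fstl3*, *Acvr1b* with *Acvr2b*, and *Acvr2b* with *Fst*.

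Ratios between these genes within a library do not depend on how libraries are scaled, and 5 were compared by an exact two-sided permutation test, whose smallest p with 3 against 3 libraries is 0.1. No ratio could therefore pass the test, and the values are given as a description. (*Fst* + *Fstl3*) to (*Inhba* + *Inhbb*) per kilobase was 0.343, 0.385 and 0.430 in KO-labelled libraries, against 0.802, 0.776 and 0.790 in control libraries, a log2 difference of -1.04 (exact p = 0.1, 0.167 adjusted over the 5 ratios). The 3 control libraries were nearly alike, and no KO-labelled library came near them. *Amh* to *Amhr2* was 0.801, 0.969 and 0.778 in KO-labelled libraries, against 0.415, 0.369 and 0.535 in control libraries, a log2 difference of 0.96 (exact p = 0.1, 0.167 adjusted). *Acvr2a* to *Acvr2b* was 3.46, 3.17 and 2.12 in KO-labelled libraries, against 1.42, 1.87 and 1.18 in control libraries, also a log2 difference of 0.96 (exact p = 0.1, 0.167 adjusted). In both ratios the groups lay apart, with more *Amh* RNA per *Amhr2* RNA and more *Acvr2a* RNA per *Acvr2b* RNA in the KO-labelled libraries.

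The ratios within the inhibin and activin subunits overlapped between the groups. *Inha* to (*Inhba* + *Inhbb*) was 3.31, 4.51 and 3.67 in KO-labelled libraries, against 3.04, 2.99 and 3.84 in control libraries, a log2 difference of 0.22 (exact p = 0.3, 0.375 adjusted). Alpha subunit RNA was thus in excess of beta subunit RNA in all 6 libraries. *Inhbb* to *Inhba* was 3.12, 4.20 and 7.19 in KO-labelled libraries, against 2.65, 3.42 and 4.21 in control libraries, a log2 difference of 0.43 (exact p = 0.5, 0.5 adjusted). KO-labelled library 3, with the lowest *Inhba* of its group, stood alone at the top of this ratio.

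**Figure D2:**
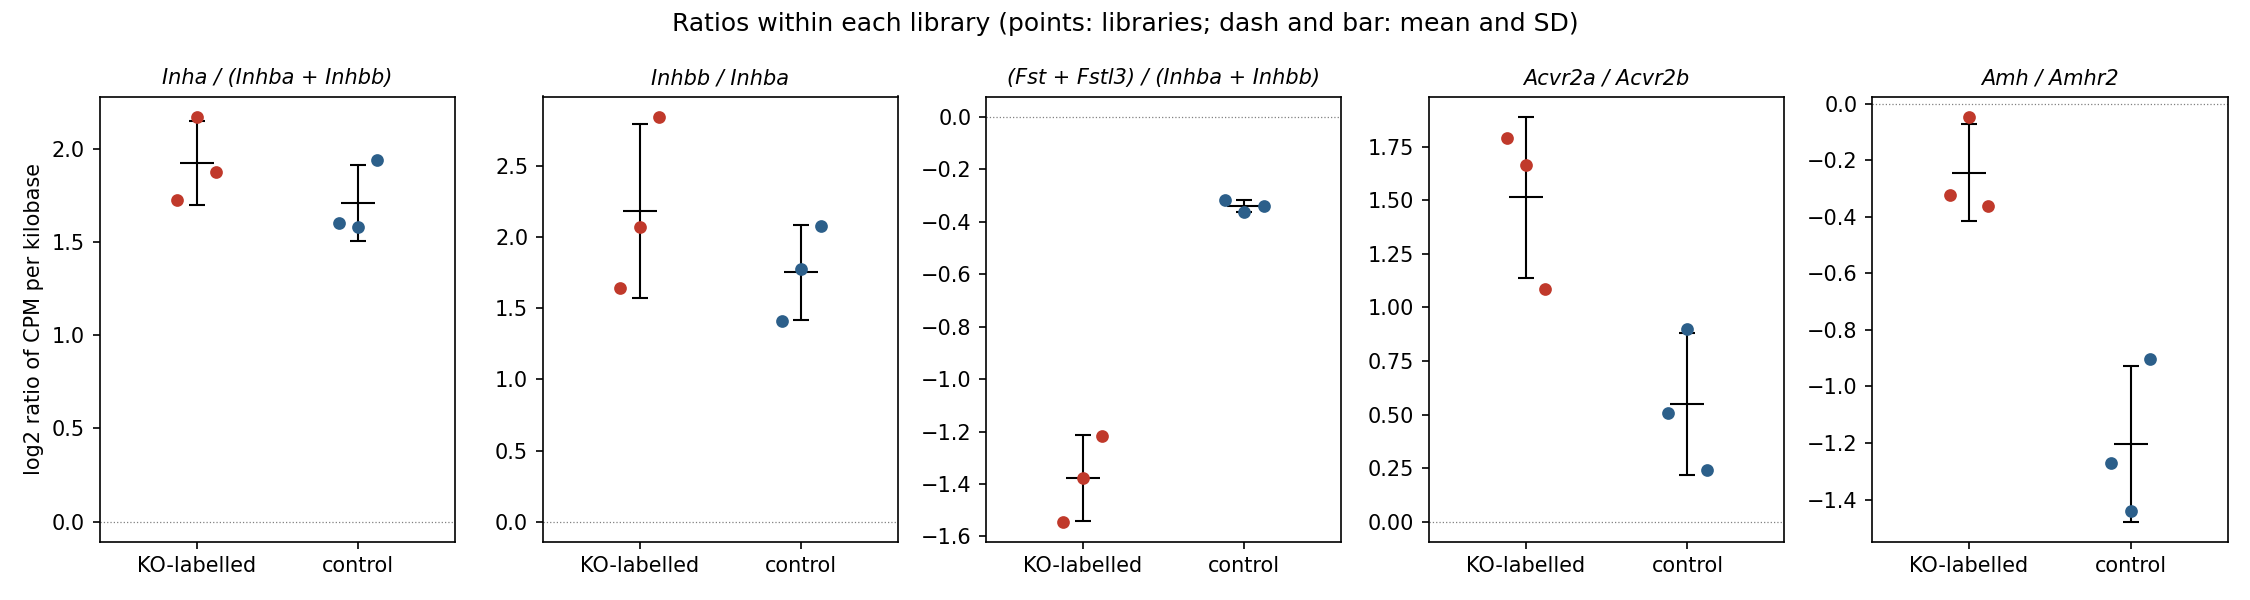
Log2 ratios of CPM per kilobase of exon (y axis) within each library, KO-labelled (left, red) and control (right, blue), with each point a library and the dash and bar the mean and SD of 3 libraries. The ratios of binding proteins to activin subunits, *Acvr2a* to *Acvr2b* and *Amh* to *Amhr2* do not overlap between the groups (log2 differences -1.04, 0.96 and 0.96), and the other 2 do.

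Since *Amh*, *Inha*, *Inhbb* and *Amhr2* are transcribed in Sertoli cells, the 10 genes were also set against 20 Sertoli cell markers. Whether their RNA came from these cells alone was not tested. Of these markers 16 rose, 0 fell and 4 did not pass, with a median log2 fold change of 0.64 and a range of 0.07 (*Tsx*) to 1.45 (*Gdnf*, the niche factor of spermatogonial stem cells). The log2 fold change of *Amh* was above those of 20 of the 20 markers, that of *Inha* above 19, that of *Inhbb* above 17 and that of *Amhr2* above 10. *Inhba* stood above 9 and *Acvr1b* above 6 of the markers. *Fst*, *Fstl3*, *Acvr2a* and *Acvr2b* lay below all 20. With the libraries scaled to these markers, the median of all genes tested moved by -0.60, and 59.9% of genes passed, 1.0% as higher and 58.9% as lower, against 3 higher and 4 lower among the 10 genes. Of the 20 Sertoli markers themselves, 3 were higher and 5 lower on this scale. Among the higher ones were *Gdnf* (0.85) and *Kitl* (0.35), so a higher value on this scale is not particular to the genes described.

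*Amh* was still higher on that scale, with a log2 fold change of 0.95 (95% interval 0.65 to 1.25, adjusted p = 2.48e-05 by edgeR). Its counts per library scaled to the Sertoli markers were 5479, 6284 and 6006 in KO-labelled libraries, against 2668, 2496 and 4025 in control libraries, without overlap. *Inha* was higher by 0.44 (95% interval 0.17 to 0.71, adjusted p = 0.00739) and *Inhbb* by 0.31 (95% interval 0.09 to 0.54, adjusted p = 0.0180). For *Inha* the scaled groups overlapped, with 11832, 15368 and 13924 in KO-labelled libraries against 8681, 9173 and 12471 in control libraries. For *Inhbb* they met closely, with 7816 as the lowest KO-labelled and 7566 as the highest control library. *Amhr2*, at 0.02 (adjusted p = 0.846), and *Inhba*, at -0.08 (adjusted p = 0.694), did not pass. The genes lower on this scale were *Acvr2b* (-1.54), *Fstl3* (-0.81), *Fst* (-0.70) and *Acvr2a* (-0.59), of which *Fstl3*, *Fst* and *Acvr2a* had not passed with TMM.

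Scaling to 58 markers of 6 somatic cell types, among them the 20 Sertoli markers, moved the median of all genes by -0.46. On this scale 48.3% of genes passed, 1.82% as higher and 46.5% as lower. Both scalings share the Sertoli markers and are not separate checks. The same 3 genes were called higher, with log2 fold changes of 1.11 for *Amh*, 0.60 for *Inha* and 0.46 for *Inhbb*, and the same 4 were called lower.

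**Figure D3:**
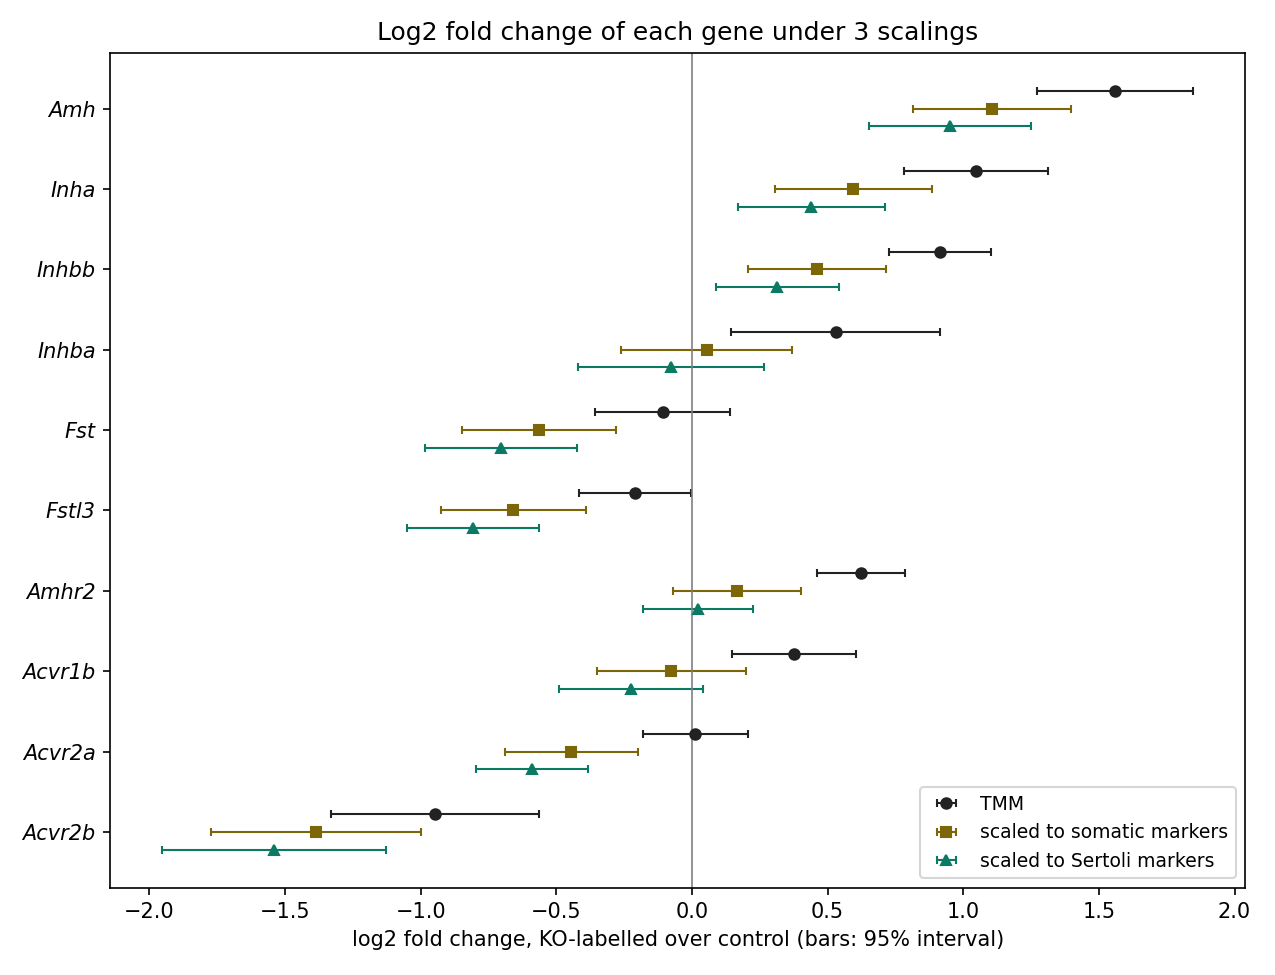
Log2 fold change (x axis, KO-labelled over control) of the 10 genes with libraries scaled by TMM (black circles), to 58 somatic markers (brown squares) or to 20 Sertoli markers (green triangles), with bars of the 95% interval. *Amh* stays above 0 at 1.56, 1.11 and 0.95 and *Acvr2b* below 0 at -0.95, -1.39 and -1.54, while *Acvr1b* and *Acvr2a* are above 0 with TMM and below 0 with both marker sets, and *Inhba* is below 0 with the Sertoli markers.

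Genes that act on *Amh* transcription in Sertoli cells were taken as a list of 9, of which 5 are also among the Sertoli markers. With TMM 7 rose, 1 fell and 1 did not pass, whereas with Sertoli scaling 0 were higher and 3 lower. The 5 shared genes help to set the Sertoli scale, so their values on it are not independent of it. *Sox8* (log2 fold change 0.80, adjusted p = 4.76e-06 by edgeR) and *Sox9* (0.75, adjusted p = 6.68e-06), which encode activators of *Amh* in the fetal testis, had the smallest p, followed by *Gata4* (0.67) and *Nr5a1* (0.54). *Fshr*, the receptor gene of FSH, rose by 0.38, *Wt1* rose by 0.33, and *Nr0b1* had 0.23 and did not pass (adjusted p = 0.135). The signs of *Nr5a1*, *Fshr* and *Wt1* turned with Sertoli scaling (-0.07, -0.22 and -0.27). *Dmrt1*, a factor of Sertoli and germ cells, fell by 0.37 on the log2 scale (adjusted p = 0.00623), and it was also lower with Sertoli scaling (-0.96).

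Downstream of the receptors, 13 genes of SMADs and SMAD partners gave 4 that rose, 6 that fell and 3 that did not pass, with a median of -0.05. *Smad6*, an inhibitory SMAD that restrains mainly the bone morphogenetic protein branch that AMH shares, rose most. It had 33.6, 30.1 and 29.4 CPM in KO-labelled libraries, against 9.50, 9.58 and 10.04 CPM in control libraries, a log2 fold change of 1.68 (SE 0.11, adjusted p = 1.03e-07 by edgeR). Libraries of a group were close to each other, and *Smad6* was the 1 gene of the list still higher with Sertoli scaling (1.07, adjusted p = 2.58e-06), where 9 were lower. *Smad7*, the other inhibitory SMAD gene, rose with TMM (0.77, adjusted p = 1.11e-04) and had 0.17 with Sertoli scaling (adjusted p = 0.261).

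The genes of the SMADs that carry the activin signal went opposite ways with TMM. *Smad3* had 173, 180 and 195 CPM in KO-labelled libraries, against 132, 124 and 117 CPM in control libraries, and rose by 0.56 on the log2 scale (adjusted p = 1.06e-04 by edgeR). *Smad2* had 76.3, 76.6 and 75.8 CPM in KO-labelled libraries, against 105, 100 and 91.1 CPM in control libraries, a log2 fold change of -0.38 (adjusted p = 0.00241). With Sertoli scaling *Smad3* was at -0.04 (adjusted p = 0.736) and *Smad2* at -0.97. *Zfyve9*, whose protein SARA brings SMAD2 and SMAD3 to the receptor, had the lowest value of the list (-0.86, adjusted p = 4.69e-06). The SMADs of the AMH branch were at -0.25 for *Smad1* (adjusted p = 0.0391), -0.05 for *Smad5* and 0.32 for *Smad9*, of which *Smad5* and *Smad9* did not pass. *Smad4*, the partner shared by both branches, was at 0.06 (adjusted p = 0.622).

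Other receptors that AMH, inhibin or activin can engage were a list of 9, of which 8 were tested. With TMM 4 rose and 0 fell, and with Sertoli scaling 0 were higher and 3 lower. *Acvr1*, which encodes a type I receptor used by AMH, had 33.7, 36.5 and 45.6 CPM in KO-labelled libraries, against 24.3, 24.1 and 25.5 CPM in control libraries (log2 fold change 0.65, adjusted p = 5.63e-04 by edgeR). The KO-labelled libraries all lay above the controls. *Tgfbr3*, the gene of betaglycan, the co-receptor through which inhibin binds type II activin receptors, rose by 0.48 on the log2 scale (adjusted p = 9.97e-04), with *Bmpr2* at 0.32 (adjusted p = 0.0113) and *Bmpr1a* at 0.26 (adjusted p = 0.0172). The signs of *Tgfbr3*, *Bmpr2* and *Bmpr1a* turned with Sertoli scaling, at -0.12, -0.28 and -0.34.

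Markers of the other cell types in the testis moved with the groups as well. Of 18 germ cell markers, 14 fell, 1 rose and 3 did not pass, with a median of -1.18. *Tex101* (-2.39) and *Sycp3* (-2.13), a gene of the synaptonemal complex, had the smallest p among those that fell, and *Gfra1*, the GDNF receptor gene of undifferentiated spermatogonia, was the 1 that rose (0.56, adjusted p = 0.00276 by edgeR), with -0.04 on the Sertoli scale. With TMM, 6 of 9 Leydig, 6 of 7 macrophage, 3 of 7 stromal, 3 of 7 endothelial and 1 of 8 peritubular myoid markers rose, and 3 of the myoid markers fell. With Sertoli scaling 0 of the Leydig, macrophage, stromal and myoid markers and 1 of the endothelial markers were higher, and 6 of 8 myoid, 4 of 7 endothelial, 2 of 9 Leydig, 1 of 7 stromal and 0 of 7 macrophage markers were lower. No marker was at 0 in all libraries. The part of these cell types in the values of the 10 genes was not tested beyond the scalings given above.

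**Figure D4:**
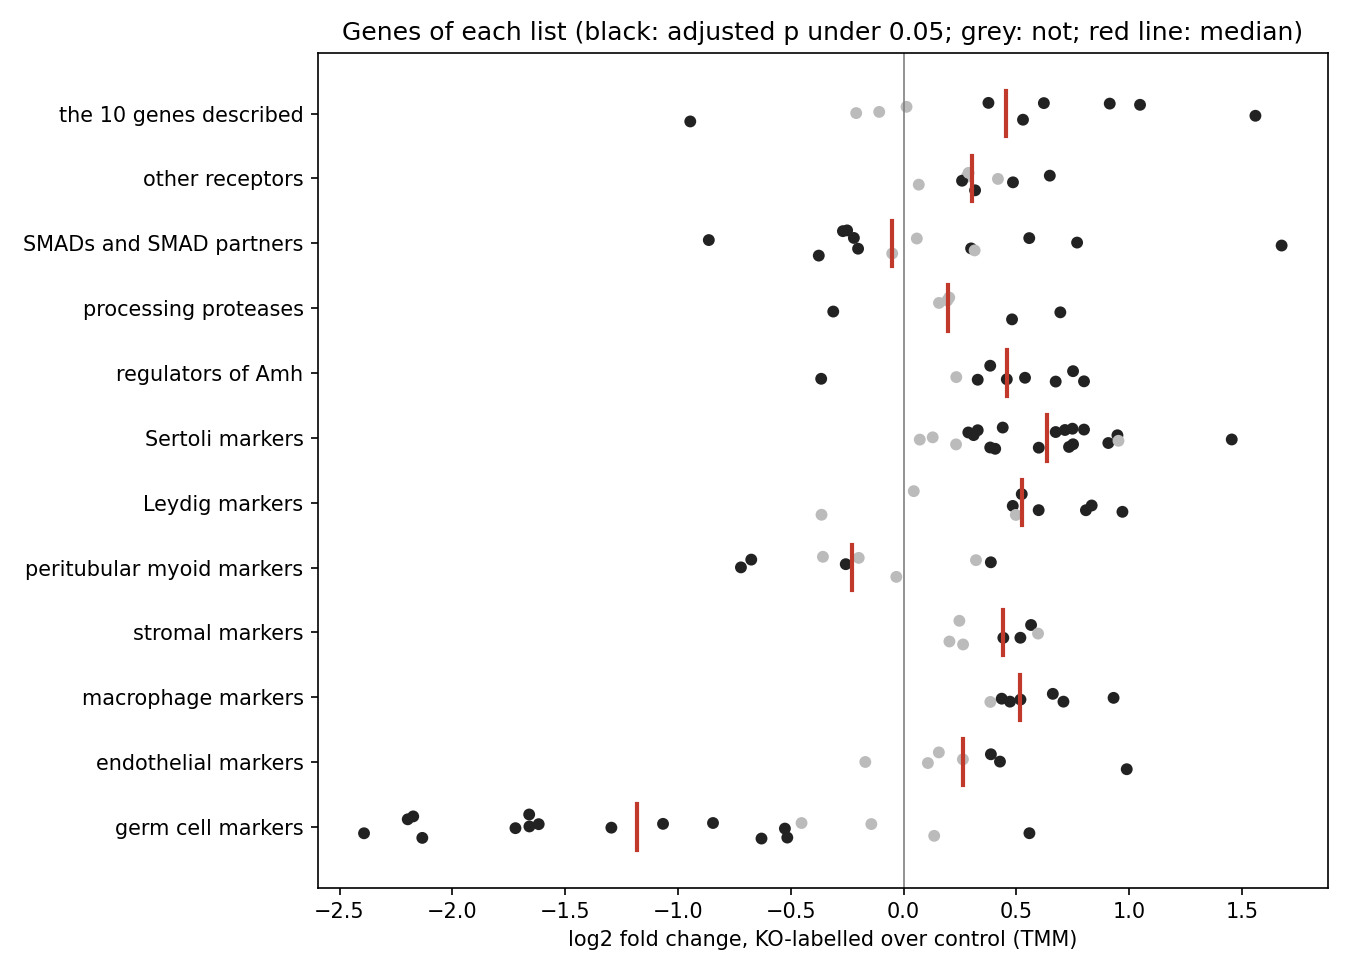
Log2 fold change with TMM (x axis, KO-labelled over control) of each tested gene in the lists described, without the list of related ligands. Genes are black where the adjusted p is under 0.05 and grey where it is not, with a red line at the median of each list. The median is 0.45 for the 10 AMH, inhibin and activin genes, 0.64 for Sertoli markers and -1.18 for germ cell markers. With Sertoli scaling the medians of the Leydig, stromal, macrophage and endothelial markers turn negative. With somatic scaling only those of the stromal and endothelial markers do.

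The genes whose log2 CPM followed *Amh* most closely over the 6 libraries were *Maged1*, *Natd1* and *Rbm15b*, each with a Pearson r of 0.998 among 9923 protein-coding genes at a mean of at least 10 CPM. With 3 libraries in each of 2 groups, r measures mostly the step between the groups. *Inha* was at rank 84 of this order (r = 0.988), *Amhr2* at 277 (0.976), *Inhbb* at 359 (0.970) and *Acvr1b* at 399 (0.968). *Inhba* (0.533) and *Acvr2a* (0.0804) followed *Amh* less.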

How the data were processed

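RNA-seq of testes at postnatal day 12 was analysed for 3 KO-labelled and 3 control libraries. The authors made stranded libraries with ribosomal depletion, used cutadapt for trimming and HISAT2 for alignment, and deposited raw counts per gene from featureCounts 1.6.4 over GENCODE M18 (GRCm38.p5). Reads of 1 strand were counted, so genes on opposite strands are kept apart. Of 54232 identifiers, 54165 were named through GENCODE M21. The quasi-likelihood test of edgeR 4.0.16, with TMM and filterByExpr, was run on the deposited counts in R 4.3.3. The SE is the log2 fold change over the square root of F, and 95% intervals are from the t distribution. Log2 CPM carry a prior count of 1. Ratios were tested in Python 3.11.15 with exact permutations. The scripts were tested on simulated counts.

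The 10 genes and the gene lists were chosen with earlier results of these data known. The text names the 10 genes, *Dis3l2* and *Dis3*, the genes of each list with the smallest adjusted p (any gene for SMADs, receptors and regulators), the range ends of the Sertoli markers and the 3 genes most like *Amh*. Some genes of the lists are not reported here by name. p-values measure the spread between these libraries. Alternatives were DESeq2 1.42.0, limma-voom 3.58.1, RLE and upper-quartile factors, scaling to Sertoli or somatic markers, 2 filters on low counts, a replicate block, and fits without 1 library at a time.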

Additional observations from a re-analysis of the deposited data

How the results depend on the processing

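With 15 alternatives, *Amh*, *Inha*, *Inhbb* and *Acvr2b* kept their direction and their call in each. Scaled to Sertoli markers, 204 genes were higher and 11964 lower, with 3 higher and 4 lower among the 10 described, and scaled to somatic markers 370 were higher and 9456 lower, with the same 3 and 4. Log2 fold changes on the Sertoli scale were -0.077 for *Inhba* (reversed), -0.70 for *Fst*, -0.81 for *Fstl3*, 0.023 for *Amhr2*, -0.59 for *Acvr2a* (reversed) and -0.22 for *Acvr1b* (reversed). On the somatic scale they were 0.054 for *Inhba*, -0.56 for *Fst*, -0.66 for *Fstl3*, 0.17 for *Amhr2*, -0.44 for *Acvr2a* (reversed) and -0.076 for *Acvr1b* (reversed). The cause was not tested, beyond the shift of all genes that both scalings make. *Inhba* was at 0.55 with DESeq2 and 0.49 with limma-voom, without its call. *Acvr2a*, close to 0, was at -0.0093 with at least 10 counts in every library.

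With each library left out in turn, log2 fold changes ran from 0.30 to 0.77 for *Inhba*, -0.29 to -0.11 for *Fstl3*, 0.35 to 0.46 for *Acvr1b* and -0.043 to 0.072 for *Acvr2a*, and of the 10 genes 5 to 6 were higher and 1 to 2 lower, the second being *Fstl3* without KO-labelled library 3. Replicate numbers did not pair the libraries (correlations of deviations -0.00140, -0.0126 and 0.0139 for the 3 numbers). With the replicate block 3271 genes were higher and 3290 lower, and the block left the 10 genes at 6 higher and 1 lower. The median of all genes also moved by -0.31 with DESeq2 and by -0.30 without a filter, where more genes of low counts entered. The 5 ratios kept their sign with each library left out, but the log2 difference of *Inhbb* to *Inhba* ran from 0.10 without KO-labelled library 3 to 0.71 without KO-labelled library 1 (0.26 without control library 1), and that of *Inha* to the beta subunits from 0.092 without KO-labelled library 2 to 0.33 without control library 3. Counts per library were lowest for *Acvr2b*, at 290 to 1026.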

Other observations

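AMH and the inhibin and activin chains are made as precursors that proprotein convertases cleave, and 6 such proteases and astacin relatives were measured. *Furin* had 221, 272 and 253 CPM in KO-labelled libraries, against 152, 137 and 172 CPM in control libraries, and rose with TMM (log2 fold change 0.69, adjusted p = 9.12e-05 by edgeR) with a value of 0.09 on the Sertoli scale (adjusted p = 0.476). *Pcsk5* rose with TMM (0.48, adjusted p = 0.00115), where the Sertoli scale gave -0.12, and *Pcsk7* fell (-0.31, adjusted p = 0.0402). The other 3 proteases did not pass, and on the Sertoli scale 0 were higher and 3 lower.

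Of 7 genes of related ligands, 2 had counts enough to be tested. *Gdf11*, which encodes a ligand of the type II activin receptors, had 12.7, 12.4 and 10.5 CPM in KO-labelled libraries, against 7.23, 5.93 and 8.81 CPM in control libraries, and rose with TMM (0.69, adjusted p = 0.00511 by edgeR). The groups did not overlap, and on the Sertoli scale its value was 0.09 (adjusted p = 0.687).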
